A study of Homo sapiens with 6 samples.

Results

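The mRNAs of FBXL6, PVRL2 and RPS6KB2 each carried 1 listed m5C site, and the listings of these sites made up 16 of the 1222 listings in the series. The 3 genes were picked by name, because their m5C level had been seen to be higher towards polysomes in the same libraries. Their levels along the gradient are therefore a description of that choice and were not tested. The series held 542 sites in 501 genes. RNA bisulfite sequencing, in which an unmethylated cytosine is read as T and 5-methylcytosine (m5C) is still read as C, had been run on poly(A)-selected RNA of wild-type HEK293T, a cell line from human embryonic kidney. The lysate, made with cycloheximide, was separated on a sucrose gradient into RNA free of ribosomes, RNA bound by a small subunit, RNA bound by a large subunit, monosomes with 1 ribosome, light polysomes with 2 to 5 ribosomes, and heavy polysomes with more than 5 ribosomes. Each of the 6 fractions was 1 library, so no value below has a replicate error, and each difference compares libraries, not conditions. The lists hold no expression values, so the cell line was not checked against marker genes.

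FBXL6 encodes an F-box protein with leucine-rich repeats, of the family that brings substrates to SCF ubiquitin ligases. PVRL2, named NECTIN2 in current annotation, encodes nectin-2, an immunoglobulin-like adhesion protein of cell junctions and a ligand of immune receptors. RPS6KB2 encodes a ribosomal protein S6 kinase that acts downstream of the growth regulator mTORC1. In mRNA, m5C is placed by enzymes of the NSUN family, and the study calls a site Type II where the next 4 bases are UCCA, the sequence that NSUN6 recognises at the end of its tRNA substrates. Here every site without UCCA was put in Type I, a remainder that is wider than the class the study defines by a G-rich motif.

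All 3 sites were Type II and lay in coding sequence (CDS), on GRCh37. The sequences of 21 nt around 2 of them, with 10 nt on either side, are shown because all results below rest on reads over these bases. They are written 5′ to 3′ in DNA letters, and the capitals mark the site and its TCCA motif.
PVRL2: ccctctgcatCTCCAaagagg
RPS6KB2: cctgggccatCTCCActccca
The PVRL2 site (ENSG00000130202) was at position 45375183 of chromosome 19, plus strand, in exon 3 of 9, at the third base of codon 184 (ATC) of 538. The RPS6KB2 site (ENSG00000175634) was at position 67200245 of chromosome 11, plus strand, in exon 7 of 15, at base 1 of codon 185 (CTC) of 482. Of the 4 coding transcripts of RPS6KB2 that hold this base, 1 has it in the CDS, 2 in the 3′ UTR and 1 in the 5′ UTR, and the canonical transcript was used.

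FBXL6 differed most between light and dense fractions. The FBXL6 site (ENSG00000182325) was at position 145580656 of chromosome 8, minus strand, in exon 4 of 9, at the third base of codon 255 (CAC) of 539, 6 nt before the end of the exon. Reads that run on past it therefore cross an exon junction. Its level was 24.4% in the small subunit library (95% Wilson interval 14.2% to 38.7%, n = 45, where n is the number of reads), 23.5% in the large subunit library (14.0% to 36.8%, n = 51) and 20.7% in the monosome library (9.85% to 38.4%, n = 29). It was 37.2% in the light polysome library (24.4% to 52.1%, n = 43) and 63.4% in the heavy polysome library (53.3% to 72.5%, n = 93). The levels of the 3 lighter libraries did not differ beyond their intervals, and the heavy polysome Wilson interval lay above those of all other fractions that listed the site. With exact binomial intervals the heavy polysome (52.8% to 73.2%) and light polysome (23.0% to 53.3%) intervals overlapped. The site was not listed in the free library. A list holds only sites called by the authors, so too few reads and a level under 10% cannot be told apart there.

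The reads with C and with T show the same site without a ratio. The FBXL6 site had 34 T reads in the small subunit library and 34 in the heavy polysome library, while its C reads were 11 and 59. The T reads lay between 23 and 39 in every listed fraction. The C reads were 6 in monosomes and 16 in light polysomes. The C reads thus varied more between fractions than the T reads, as counts that were not scaled between libraries.

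For FBXL6 the change lay at the dense end of the gradient. The step from the small to the large subunit library was -0.915 percentage points (95% Newcombe interval -18.0 to 15.8), and the step to monosomes was -2.84 (-20.0 to 17.3). The step from monosomes to light polysomes was 16.5 percentage points (-5.34 to 35.0), an interval that holds 0. The step from light to heavy polysomes was 26.2 percentage points (8.18 to 42.0). Over the 132 sites listed in both polysome libraries the median step was -0.551 percentage points, and FBXL6 had the highest value among them. A step of at least 5 percentage points was seen at 19.7% of these 132 sites, FBXL6 and RPS6KB2 included.

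**Figure D1:**
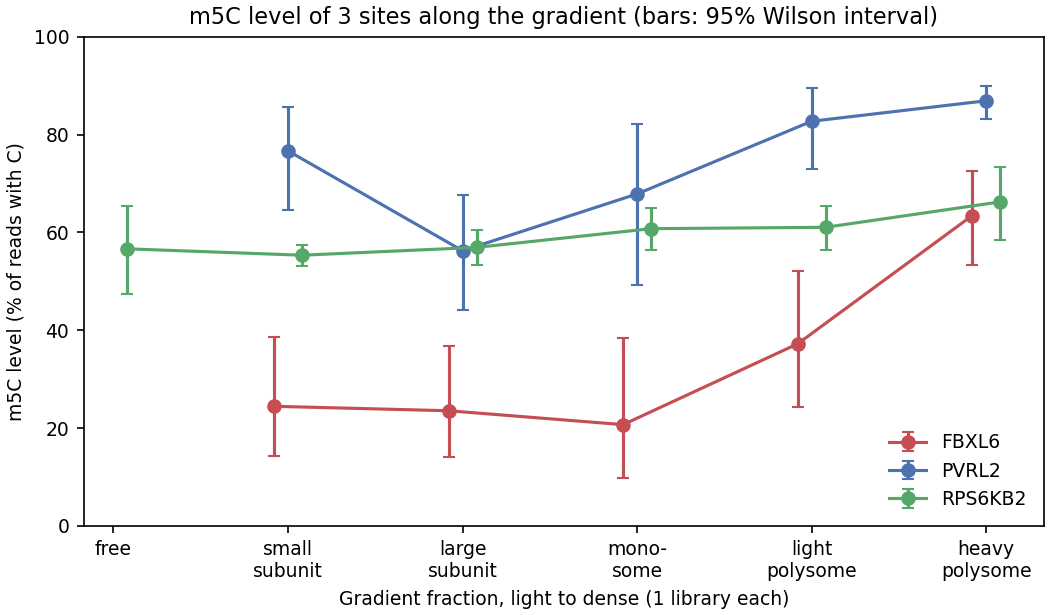
m5C level (percent of reads with C) of the 3 sites in the 6 gradient fractions, from light to dense. Points are single libraries and bars are 95% Wilson intervals of the reads. FBXL6 is near 20.7% to 24.4% up to monosomes and at 63.4% in heavy polysomes, PVRL2 is lowest at 56.3% in the large subunit library, and RPS6KB2 stays between 55.3% and 66.2%.

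PVRL2 was highly methylated in every fraction that listed it, and its levels did not follow the order of the fractions. The level was 76.7% in the small subunit library (64.6% to 85.6%, n = 60), the highest of the 199 sites listed there. It was 56.3% in the large subunit library (44.1% to 67.7%, n = 64) and 67.9% in the monosome library (49.3% to 82.1%, n = 28). The large subunit library was the low point, and the step down to it from the small subunit library was -20.4 percentage points (-35.5 to -3.75). In the light polysome library the level was 82.7% (73.1% to 89.4%, n = 81), and in the heavy polysome library it was 86.9% (83.2% to 89.9%, n = 382), the highest of the 225 sites listed there. Like FBXL6, PVRL2 was not listed in the free library.

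How far PVRL2 was higher in polysomes depended on the lighter library it was set against. Heavy polysomes exceeded the large subunit library by 30.7 percentage points (18.6 to 43.2) and monosomes by 19.1 (4.36 to 37.8). Against the small subunit library the heavy polysome difference was 10.2 (0.591 to 22.7), and the light polysome difference was 6.05 (-7.08 to 19.9), an interval that holds 0. The neighbouring steps after the low point were 11.6 percentage points from the large subunit library to monosomes (-10.2 to 30.3), 14.9 to light polysomes (-2.33 to 34.6) and 4.20 to heavy polysomes (-3.48 to 14.3). None of these 3 steps had an interval above 0 by itself, and the 28 monosome reads left the intervals of the steps to and from that library wide. Both polysome levels had intervals that overlapped each other and that of the small subunit library.

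RPS6KB2 had the smallest differences and the most reads. In free RNA the RPS6KB2 site was methylated at 56.6% (47.4% to 65.4%, n = 113), with 55.3% in the small subunit library (53.1% to 57.5%, n = 1979) and 56.9% in the large subunit library (53.3% to 60.5%, n = 729). It was 60.8% in the monosome library (56.4% to 65.0%, n = 497), 61.0% in the light polysome library (56.4% to 65.5%, n = 444) and 66.2% in the heavy polysome library (58.4% to 73.3%, n = 151). From the small subunit library onwards each level was above the one before, but the intervals of all 5 neighbouring steps held 0. The largest of these steps was 5.19 percentage points from light to heavy polysomes (-3.83 to 13.6).

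Over wider spans the RPS6KB2 differences were larger, and as the site was picked for a rise their intervals describe the counting error only. Heavy polysomes exceeded the small subunit library by 10.9 percentage points (2.74 to 18.3) and the large subunit library by 9.30 (0.671 to 17.2). Monosomes exceeded the small subunit library by 5.43 (0.560 to 10.2). Against the free library, with its 113 reads, the heavy polysome difference was 9.59 (-2.19 to 21.2), so the ends of the gradient were not separated at this depth. Among the 51 sites listed in both end fractions, 9.80% were higher in heavy polysomes by at least 5 percentage points.

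**Figure D2:**
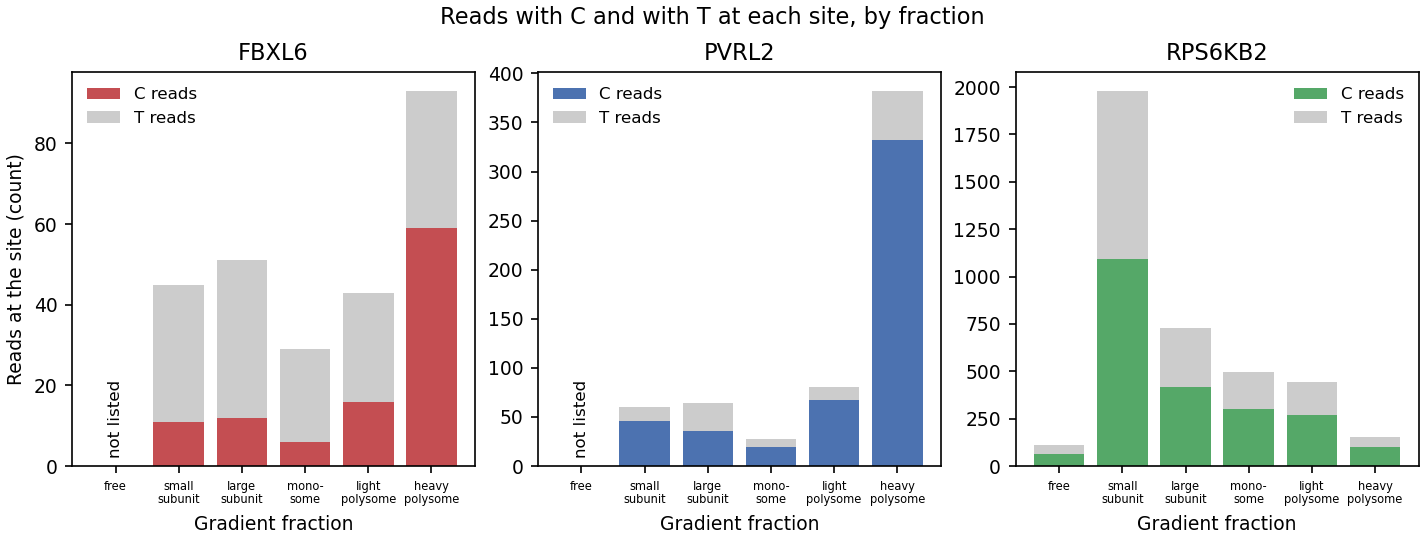
Reads with C (coloured) and with T (grey) at each site in the 6 fractions, stacked as counts from 0, with a separate scale for each gene. PVRL2 and FBXL6 have the most reads in heavy polysomes (382 and 93), and RPS6KB2 has the most in the small subunit library (1979).

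The 3 sites were then set beside all others, with reads summed over the 3 libraries before monosomes (subpolysomal) and over both polysome libraries. FBXL6 had 24.0% before the polysomes (16.5% to 33.4%, n = 96) and 55.1% in them (46.8% to 63.3%, n = 136), a difference of 31.2 percentage points (18.6 to 42.2). PVRL2 had 66.1% (57.4% to 73.9%, n = 124) and 86.2% (82.7% to 89.0%, n = 463), a difference of 20.0 percentage points (11.6 to 29.2). RPS6KB2 had 55.8% (54.0% to 57.6%, n = 2821) and 62.4% (58.4% to 66.2%, n = 595), a difference of 6.56 percentage points (2.20 to 10.8).

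All 3 sites were higher in polysomes by at least 5 percentage points, as were 14.0% of the 178 sites listed on both sides, and because the sites were picked for this the count carries no further weight. Over the 178 sites the median difference was -2.12 percentage points, and over the 71 Type II sites it was -1.99. In order of the difference FBXL6 was number 1 of 178, PVRL2 number 5 and RPS6KB2 number 20. RPS6KB2 thus lay among many sites with a difference of its size, but its depth made its interval narrower than those of the other members. By at least 10 percentage points, 12 of the 178 sites (6.74%) were higher in polysomes, FBXL6 and PVRL2 among them, and 7 of the 12 were among the 71 Type II sites (9.86%).

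The summed differences rested in part on single libraries. Without the heavy polysome library the FBXL6 difference was 13.3 percentage points (-2.68 to 29.9). Without the large subunit library the PVRL2 difference was 9.51 (-0.0264 to 21.9), and without the small subunit library it was 29.9 (18.0 to 42.4). Without the light polysome library the RPS6KB2 difference was 10.4 (2.36 to 17.7). All differences stayed positive, which the choice of the sites made likely. Leaving out heavy polysomes for FBXL6 or the large subunit for PVRL2 gave an interval that held 0.

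**Figure D3:**
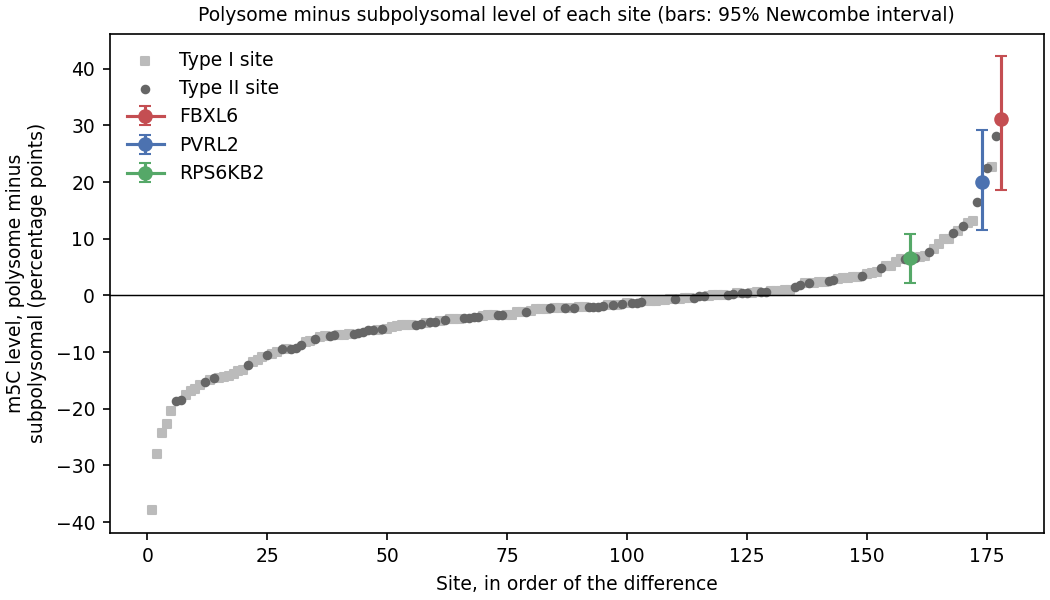
Difference in m5C level, polysome minus subpolysomal (percentage points), for the 178 sites listed on both sides, in ascending order. Squares are Type I and circles are Type II sites, and bars on the 3 named sites are 95% Newcombe intervals. FBXL6 is at the upper end with 31.2 and RPS6KB2 at 6.56, while the median site is at -2.12.

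Coverage was not used to pick the genes, and it ran in opposite directions. Of the 615 reads at the PVRL2 site, 62.1% were in the heavy polysome library, and of the 261 at the FBXL6 site 35.6% were there. Of the 3913 reads at the RPS6KB2 site, 50.6% were in the small subunit library. Scaled to 1000 reads at all listed sites of a library, however, RPS6KB2 coverage was highest in light polysomes, at 5.85 against 5.24 in the small subunit library. The level was highest in heavy polysomes at all 3 sites, which their choice for higher levels towards polysomes made likely. Among the libraries, heavy polysomes held the most reads for PVRL2 and FBXL6 but not for RPS6KB2, which had 151 there. Heavy polysome over small subunit reads gave a ratio of 6.37 for PVRL2, 2.07 for FBXL6 and 0.0763 for RPS6KB2. The median ratio over the 85 sites listed in both libraries was 1.74, with quartiles of 0.787 and 3.67, so FBXL6 lay within the quartiles, PVRL2 above and RPS6KB2 below them. Reads at a site follow both the amount of that mRNA and the depth of the library, and these ratios do not separate them.

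Beyond the motif, the sites shared a predicted fold with 25 nt on each side, but not with 50 nt, the main window planned. With 25 nt on each side, RNAfold placed each methylated C in a hairpin loop, in the loop of 11 nt for FBXL6, 10 nt for PVRL2 and 11 nt for RPS6KB2, and at the fifth base of the loop in all 3. The loop was closed by 4 unbroken base pairs in FBXL6, 10 in PVRL2 and 8 in RPS6KB2. A hairpin loop around the C was common among Type II sites. Of 189 that could be folded, 133 (70.4%) had the C in a hairpin loop. At the fifth base of a loop of 10 or 11 nt it was found in 23, the members included. That place and loop length were taken from the members' own folds, so the count is a description only. Of 339 Type I sites, 80 (23.6%) had the C in a hairpin loop and 3 at that place in a loop of that length. With 50 nt on each side the C stayed unpaired in PVRL2 and RPS6KB2 but was paired in FBXL6, and 74.1% of Type II sites were unpaired. These are predictions from the reference sequence, without conversion, protein or ribosomes.

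**Figure D4:**
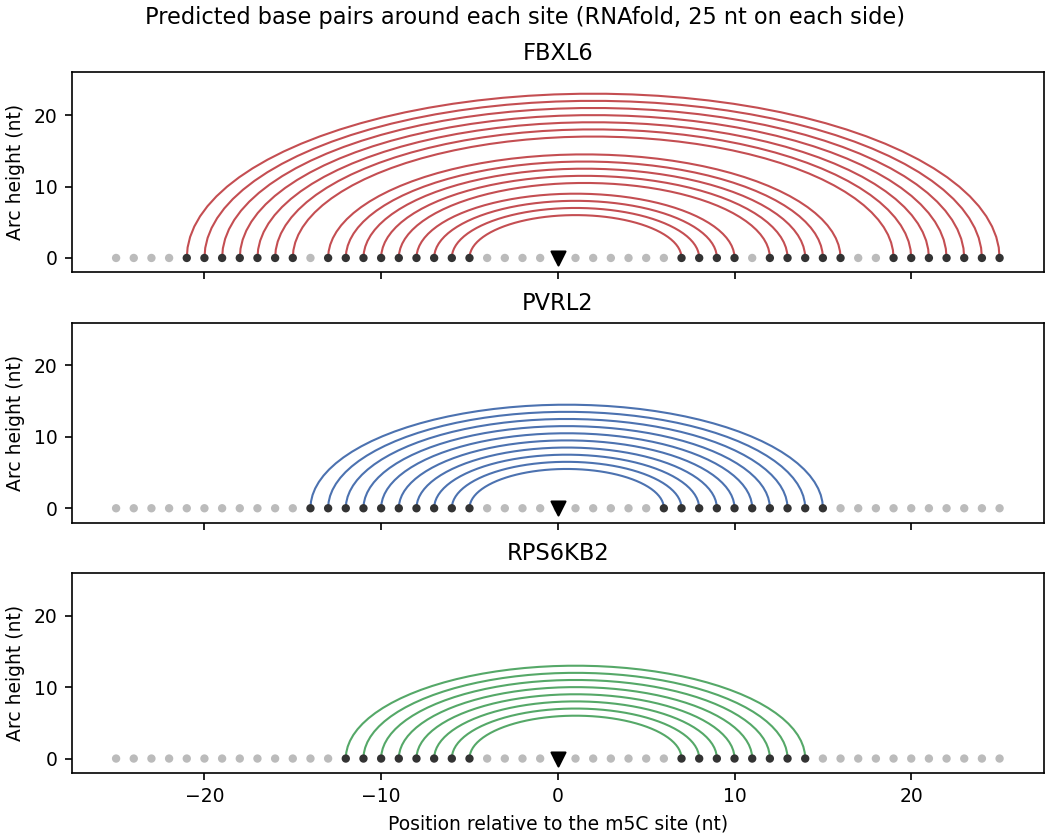
Base pairs predicted by RNAfold for 51 nt around each site, as arcs over the position relative to the site (nt). The arc height is the arc's radius in nt, dark dots are paired bases, and the triangle is the methylated C. In all 3 genes the C is at the fifth base of a loop of 10 or 11 nt in this window. With 50 nt on each side the C of FBXL6 was paired.

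Place within the mRNA was less alike. The sites were at 47.3% (FBXL6), 34.2% (PVRL2) and 38.4% (RPS6KB2) of the CDS, where the median Type II site in a CDS was at 45.9%. CDS held 114 of the 190 Type II sites (60.0%). Of these, 62 were at the third base of a codon, as in FBXL6 and PVRL2, and 26 at base 1, as in RPS6KB2.

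Sequence shared with other places was looked for, since conversion makes sequences more alike. No other gene had an annotated transcript with the 51 nt around any of the sites, even after every C was changed to T. With 21 nt the changed RPS6KB2 window matched transcripts of 3 other genes and 105 other places in the genome. The changed PVRL2 window matched 10 other places in the genome, and the changed FBXL6 window, which crosses an exon junction and so has no genomic place of its own, matched 2. SLC52A2 overlaps the FBXL6 site and RPS6KB2-AS1 the RPS6KB2 site on the opposite strand without an exon there, and the libraries were made with a strand-specific kit.

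Sites whose levels ran most like those of the members were ranked on the same levels that the members were picked on. Of the sites named, NSUN5P2 was Type I and the others Type II, but the share of Type II among all compared sites was not counted. Of all 542 listed sites 190 were Type II, and of the 178 sites in the summed comparison 71 were. Likeness was Pearson's r over 5 shared fractions, which are single libraries of unequal depth, and it is given as a description. FURIN, a secretory-pathway protease, was the closest to both FBXL6 (r = 0.887) and PVRL2 (r = 0.876) among 59 sites. Its level was 64.9% in the small subunit, 62.6% in the large subunit, 65.5% in the monosome, 74.4% in the light polysome and 76.6% in the heavy polysome library. FURIN thus had its higher levels in polysomes too, over a span narrower than that of FBXL6. FAM107B was the closest to RPS6KB2 (r = 0.914) among 78 sites, with 15.6%, 20.0%, 21.4%, 19.3% and 30.6% in the same order. Both sites lay in 3′ UTRs, and their sequences are shown for comparison with the members, in the same form.
FURIN: gaggccacctCTCCAagggct
FAM107B: cttttcatttCTCCAagagga
The FURIN site (position 91425541 of chromosome 15, plus strand, exon 16 of 16) was placed at the fifth base of a predicted loop of 11 nt. The FAM107B site (position 14562307 of chromosome 10, minus strand, exon 5 of 5) was not placed in a hairpin loop. Both folds used 25 nt on each side. SLC25A39, a mitochondrial carrier, ranked next for FBXL6 (r = 0.878) and PVRL2 (r = 0.819), but its levels over the same fractions spanned only 10.5% to 12.1%, so a high r did not mean a difference of like size. In the free library, which did not enter r, SLC25A39 had its highest level, 15.6%. Its summed difference was -0.472 percentage points (-2.24 to 1.40). LMAN1, a cargo receptor of the secretory pathway, was the third for PVRL2 (r = 0.800), and NSUN5P2, of Type I, was the second for RPS6KB2 (r = 0.865). NSUN5P2 was not listed in heavy polysomes, so its r ran over the free to light polysome libraries and left out the highest RPS6KB2 level. RPS6KB2 and FBXL6 were each the third for the other (r = 0.845). PVRL2 had r = 0.748 with FBXL6 and 0.610 with RPS6KB2.

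Genes of the same pathways were also looked for among the listed sites. Whether the numbers found were low for the series was not tested. A gene can be absent through poor coverage or through weak methylation, and the lists do not separate these. Among F-box and SCF genes, for which the list of symbols was open, 3 others had a site, all Type I. The mTORC1 and S6 kinase list held 23 symbols, and 2 other genes had a site. CCNF, a cyclin-like F-box gene, had 13.5% in the large subunit and 12.5% in the light polysome library. FBXW5 had 10.0% in the free and 12.9% in the monosome library. FBXW9 had 40.0% in the light polysome library on 25 reads and 17.6% in the heavy polysome library on 68 reads, so its order in polysomes was opposite to that of FBXL6. Of the other mTORC1 and S6 kinase genes, EIF4B, a translation initiation factor and S6 kinase substrate, had a Type II site with 17.1% in the free and 11.5% in the light polysome library and a summed difference of -1.42 percentage points (-3.38 to 0.675). RPS6, the ribosomal protein the S6 kinases phosphorylate, was listed in the free library alone, at 28.6% on 28 reads. That position could not be placed in an annotated exon of RPS6, so it is not shown to lie in the RPS6 mRNA. A search with 16 symbols of nectin family and nectin-ligand genes found 0 other genes with a listed site. CCNF and EIF4B were the related genes with reads on both sides of the summed comparison, and the CCNF difference was -1.01 percentage points (-16.9 to 13.4), so both intervals held 0.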

How the data were processed

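Per the methods and processing notes of the study, the authors trimmed reads with cutadapt 1.13 and Trimmomatic 0.36, mapped them to converted GRCh37 sequence with HISAT2 and Bowtie2 2.2.9, and filtered sites on base quality (at least 30), reads with many unconverted cytosines, signal ratio and resistant genes. The deposited coverage is the count of C and T reads at a site, unscaled. The deposited m5C level is the fraction of these reads with C. The deposited P-value, from a binomial test against the gene's conversion rate, was not used. All listed sites had a level of at least 10% and at least 20 reads.

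Reads with C were taken as level times coverage, whole numbers (within 1e-06) at all 1222 listings. All 542 positions were C in the reference. Reads at listed sites summed to between 50416 and 764521 per library, with a median coverage of 68 to 75 reads. Sites were placed with GENCODE 44 lifted to GRCh37, the canonical transcript preferred. Levels carry Wilson and differences Newcombe intervals, tested on simulated data. Intervals cover only the counting error of independent reads, and the simulated reads were independent too. Reads had no molecular identifiers, so PCR copies of the same molecule were counted separately and intervals may be too narrow. Folds were made with ViennaRNA 2.7.2. Python 3.11.15, numpy 2.4.6, scipy 1.17.1 and pandas 2.3.3 were used. The named genes are the members, the 3 sites most like each by Pearson's r over at least 5 fractions, and listed genes of their pathways. Members and lists were chosen with earlier results of these data known. Alternatives covered summing, coverage minimum, scaling, thresholds, interval method, fold window and leaving out each library.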

Additional observations from a re-analysis of the deposited data

How the results depend on the processing

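Of 28 alternatives for the summed differences and the largest steps, 25 gave a value within the Newcombe interval of the reported one, 3 a value outside it and 0 a change of direction. Some could not differ, as a minimum of 50 reads removed no library from the PVRL2 and RPS6KB2 sums or the largest RPS6KB2 step. With that minimum the largest FBXL6 and PVRL2 steps ran between fractions that are not neighbours, from the large subunit to heavy and to light polysomes. All 25 alternatives for the summed polysome differences were positive. They used the same reads, and the choice of the genes for higher levels towards polysomes made this sign likely. Leaving out each library in turn gave 13.3 to 39.5 percentage points for FBXL6, 9.51 to 29.9 for PVRL2 and 5.24 to 10.4 for RPS6KB2. The share of sites higher in polysomes by at least 5 percentage points (14.0%) was 6.74% at 10 percentage points and 9.60% with at least 50 reads on both sides. The ratio of heavy polysome to small subunit coverage, scaled to 30 nuclear-encoded sites listed in all 6 libraries, was 9.29 for FBXL6, 28.6 for PVRL2 and 0.343 for RPS6KB2. It was 15.5, 47.7 and 0.572 when scaled to all listed sites, and 2.19, 6.74 and 0.0808 when scaled to the median of those 30 sites. The size of this ratio thus depended on the scaling and its side of 1 did not, while the fraction with the highest RPS6KB2 coverage moved from the small subunit to light polysomes when scaled to all listed sites. The share of Type II sites with the C unpaired was 82.0% with 25 nt on each side, against 74.1% with 50. No paired analysis was possible because each fraction was 1 library. Depth limits FBXL6 most, with 29 to 93 reads a fraction.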
